A study of Mus musculus with 12 samples.

Results

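The 10 genes described here encode proteins of eicosanoid and phospholipid metabolism. They are Pla2g4a, Pla2g6 and Pla2g7 of the phospholipase A2 group, and the cyclooxygenases Ptgs1 and Ptgs2. The others are the prostaglandin synthases Ptges, Ptgds and Hpgds, and Alox5ap and Ltc4s of the leukotriene branch. The genes were chosen by symbol. All 10 were found among the 30165 genes of the OPC table and among the 17918 genes of the neuron table. RNA was sequenced from oligodendrocyte precursor cells (OPCs) and neurons isolated from the mouse cortex, with 3 ctl and 3 dKO libraries for each cell type. The ctl animals are labelled WT. The dKO animals carried NG2-CreERT2, an inducible Cre recombinase driven by the NG2 promoter, and floxed alleles of genes for L-type calcium channels. The loxP sites enclose exons 14 and 15 in Cacna1c, which encodes Cav1.2, and exon 2 in Cacna1d, which encodes Cav1.3, so that the deletion was aimed at OPCs and not at neurons. By the study's methods Cre was induced with tamoxifen, 100 mg/kg daily, on days 7 and 8 after birth. Whether the ctl animals carried floxed alleles or Cre, and the age at which the cells were collected, are not given in the sources used here. Each library pooled 2 mice, with 6 mice per group, and the comparison asks how losing these channels in OPCs bears on the transcriptome of the OPCs and of the neurons beside them.

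Eicosanoids are signalling lipids made from arachidonic acid, which phospholipases A2 cut from membrane phospholipids. Cyclooxygenases turn arachidonic acid into prostaglandin H, from which separate synthases make prostaglandin E, prostaglandin D or thromboxane, while 5-lipoxygenase and its partner protein lead to the leukotrienes. In the brain, microglia, endothelial cells, astrocytes, meningeal cells and oligodendrocytes each hold different members of this pathway.

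The libraries held 14935963 to 19812274 counts in OPCs and 15052901 to 16344585 estimated counts in neurons. The labelled cell types were not pure by their markers. OPC libraries were collected with beads against CD140, NG2 and O4. In them the 8 oligodendrocyte markers summed to 851060 to 1480630 normalized counts per library, against 20506 to 39504 for the 8 OPC markers. The 6 markers of choroid plexus and ependyma summed to 180860 to 414973 in OPC libraries. Neuron libraries were what passed a column that held back cells bound by beads against O4, CD11b, CD31 and ACSA-2, which mark the oligodendrocyte lineage, microglia, endothelial cells and astrocytes, and the 9 neuron markers summed to 8548 to 21310.5, against 136230 to 306284 for the 9 endothelial markers and 76761 to 475894 for the 6 markers of choroid plexus and ependyma. No marker in any list was at 0 in all libraries. In bulk RNA, fewer cells of a type and less RNA per cell cannot be told apart. OPC dKO 2 was the OPC library without Y-linked counts, and among neurons ctl 1 and dKO 1 held nearly all of them. Normalized counts of Cacna1c in OPCs were 373, 411 and 439 in ctl and 252, 337 and 312 in dKO, and those of Cacna1d were 251, 191 and 255 in ctl and 92.8, 153 and 232 in dKO. The dKO libraries were below all ctl libraries for Cacna1c, while the groups overlapped for Cacna1d.

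The genes differed widely in level, which can be compared between genes only per length. In TPM, a unit that scales reads by transcript length and library depth, Ptgds, the lipocalin-type prostaglandin D synthase, was the highest of the 10 in ctl OPCs at 4647 ± 459 (SD, n = 3). Next came Pla2g7, a secreted hydrolase of platelet-activating factor (PAF), at 78.8 ± 19.3, and Ltc4s, the leukotriene C4 synthase, at 39.6 ± 13.3 TPM. Pla2g4a, the calcium-dependent cytosolic phospholipase A2 that prefers arachidonate, stood at 20.9 ± 1.54 TPM, and Pla2g6, the calcium-independent form, at 19.9 ± 1.54 TPM, a pair whose libraries overlapped. Ptgs2, the inducible cyclooxygenase, was at 10.7 ± 1.04 TPM and Ptgs1, the constitutive one, at 5.95 ± 0.874 TPM. Ptges, the microsomal prostaglandin E synthase, was at 3.82 ± 0.808 TPM and overlapped with Hpgds, the hematopoietic prostaglandin D synthase, at 3.19 ± 0.485 TPM. Alox5ap, the protein that presents arachidonate to 5-lipoxygenase, was the lowest at 1.38 ± 0.737 TPM. Ptgds alone took 0.136% to 0.226% of all counts of an OPC library, against 0.0151% to 0.0275% for the other 9 genes together.

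In ctl neuron libraries Ptgds was again the highest, at 257 ± 130.3 TPM (SD, n = 3). Pla2g4a at 57.5 ± 14.9 TPM and Pla2g7 at 57.2 ± 44.9 TPM followed and overlapped with each other. Below them lay Ltc4s at 19.1 ± 7.96, Ptges at 14.3 ± 1.14, Ptgs1 at 10.4 ± 6.96, Ptgs2 at 10.4 ± 4.70, Alox5ap at 8.73 ± 6.06, Pla2g6 at 8.34 ± 1.42 and Hpgds at 7.69 ± 5.49 TPM. From Pla2g7 downwards every neighbour in this order overlapped with the next. Reads of OPCs and of neurons were counted by different methods, so their levels are set side by side without a test.

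**Figure D1:**
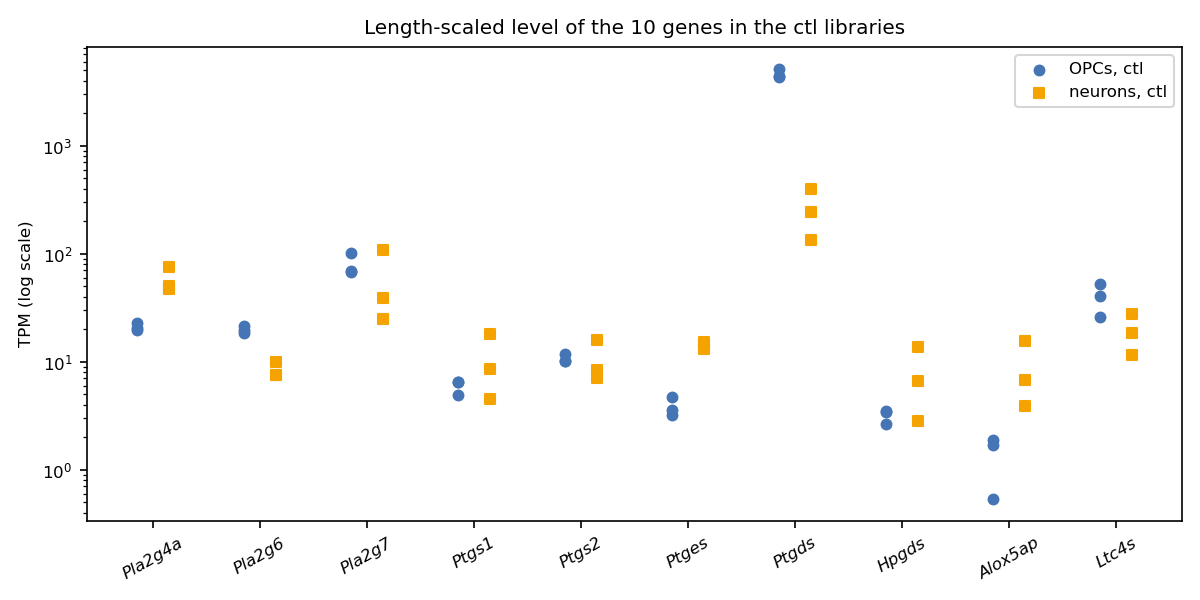
Level of the 10 genes in TPM, on a log axis, with 1 point per ctl library (circles, 3 OPC libraries; squares, 3 neuron libraries). Ptgds lies above all other genes in both cell types, at 4345 to 5175 TPM in OPCs and 134 to 393 TPM in neurons.

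In OPCs the cyclooxygenase and hematopoietic prostaglandin D synthase transcripts were higher in dKO than in ctl, as were Alox5ap and Pla2g7. With edgeR's quasi-likelihood test over 17364 genes, 5 of the 10 genes had an unadjusted p under 0.05, all 5 of them higher in dKO. One of them, Alox5ap, entered the test through its dKO libraries, and among the other 9 genes the count was 4. Among all genes tested the share was 11.5%, made up of 6.27% higher and 5.27% lower in dKO. After Benjamini-Hochberg adjustment over all genes 0 of the 10 had an adjusted p under 0.05 with edgeR, where 0.00576% of genes did. DESeq2 called 1 of the 10, Ptgs1, where it called 1.69% of genes. The median log2 fold change of the 10 was 0.74, or 0.72 without Alox5ap, beside 0.01 over all genes tested. The dKO libraries lay above every ctl library for 2 of the 10 (Ptgs1 and Ptgs2) and below for 1 (Pla2g4a). Over all genes the groups did not overlap for 17.0%, with dKO above in 7.41% and below in 9.55%.

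Ptgs1 had the smallest p of the 10 in OPCs. Its normalized counts were 122, 90.5 and 119 in ctl and 312, 163 and 388 in dKO. All dKO libraries were above all ctl libraries, with dKO 2 the lowest of them. The log2 fold change was 1.37 (SE 0.31, 95% interval 0.66 to 2.08), with an edgeR p of 0.00193 and an adjusted p of 0.262, while the adjusted p of DESeq2 was 0.00645. Ptgs2 counted 224, 218 and 259 in ctl and 355, 288 and 557 in dKO. Its groups did not overlap either, and the ctl libraries lay close together. Ptgs2 had a log2 fold change of 0.77 (SE 0.24, 95% interval 0.23 to 1.32), with an edgeR p of 0.011 and an adjusted p of 0.313, and without dKO 3 it was 0.45.

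Hpgds, which makes prostaglandin D in blood-derived and microglial cells, followed the same order of dKO libraries. It counted 110.2, 79.8 and 104 in ctl and 229.7 (dKO 1), 103 (dKO 2) and 342 (dKO 3) in dKO. Only dKO 2 fell within the ctl range. Its log2 fold change was 1.19 (SE 0.39, 95% interval 0.30 to 2.08), with an edgeR p of 0.0149 and an adjusted p of 0.33. Leaving out ctl 2 or dKO 3 took the p of Hpgds to 0.0516 and 0.0691, with a log2 fold change of 0.75 without dKO 3, and without dKO 2 its edgeR adjusted p was 0.0316. Without dKO 2 that of Ptgs1 was 0.0121.

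Alox5ap was sparse, with 13.1, 3.57 and 11.5 normalized counts in ctl and 48.9, 12.7 and 55.6 in dKO. Again dKO 2 lay within the ctl range and the other dKO libraries well above it. The log2 fold change was 2.00 (SE 0.65, 95% interval 0.52 to 3.48), with an edgeR p of 0.0138 and an adjusted p of 0.327. Its ctl mean of 9.40 was under the minimum of 10, so that Alox5ap entered the test through its dKO libraries.

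Pla2g7 counted 948, 937 and 1401 in ctl and 1339.9, 3254 and 1750.2 in dKO. Here dKO 2, low for the genes above, was by far the highest library, and dKO 1 lay within the ctl range. The log2 fold change was 0.95 (SE 0.31, 95% interval 0.23 to 1.67), with an edgeR p of 0.0154 and an adjusted p of 0.33. Without dKO 2 the log2 fold change was 0.50, and without ctl 1 or ctl 2 the p was 0.0536 and 0.0546.

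The remaining 5 genes did not pass an unadjusted p of 0.05 in OPCs with all 6 libraries. Pla2g4a counted 609, 619 and 688 in ctl and 529, 346 and 568 in dKO. All dKO libraries were below all ctl libraries, with dKO 2 the lowest. The log2 fold change was -0.41 (SE 0.18, 95% interval -0.83 to 0.01), with an edgeR p of 0.0541 and an adjusted p of 0.443, and without dKO 2 it was -0.22. Without dKO 3 its p was 0.0231. Ptges counted 61.2, 65.5 and 88.8 in ctl and 70.4, 123 and 160.5 in dKO, a log2 fold change of 0.72 (SE 0.33). Its p was 0.0582 with edgeR and 0.0432 with DESeq2, before adjustment, and 0.00794 with edgeR without dKO 1. The log2 fold change of Ptges was 0.42 without dKO 3. Ptgds counted 35501, 40269.9 and 34181 in ctl and 37967, 25936 and 22423 in dKO, a log2 fold change of -0.35 (95% interval -0.87 to 0.17). The library dKO 1 lay within the ctl range of Ptgds, and dKO 2 and dKO 3 below it. Without dKO 1 the log2 fold change of Ptgds was -0.60 with a p of 0.0196, and without dKO 3 it was -0.21. Pla2g6, at 441 to 550.2 in all 6 libraries, had a log2 fold change of -0.15 (95% interval -0.42 to 0.12). Ltc4s, at 124 to 259, had one of -0.29 (95% interval -0.89 to 0.32), which was -0.52 with a p of 0.0416 without ctl 2 and -0.01 without ctl 1.

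**Figure D2:**
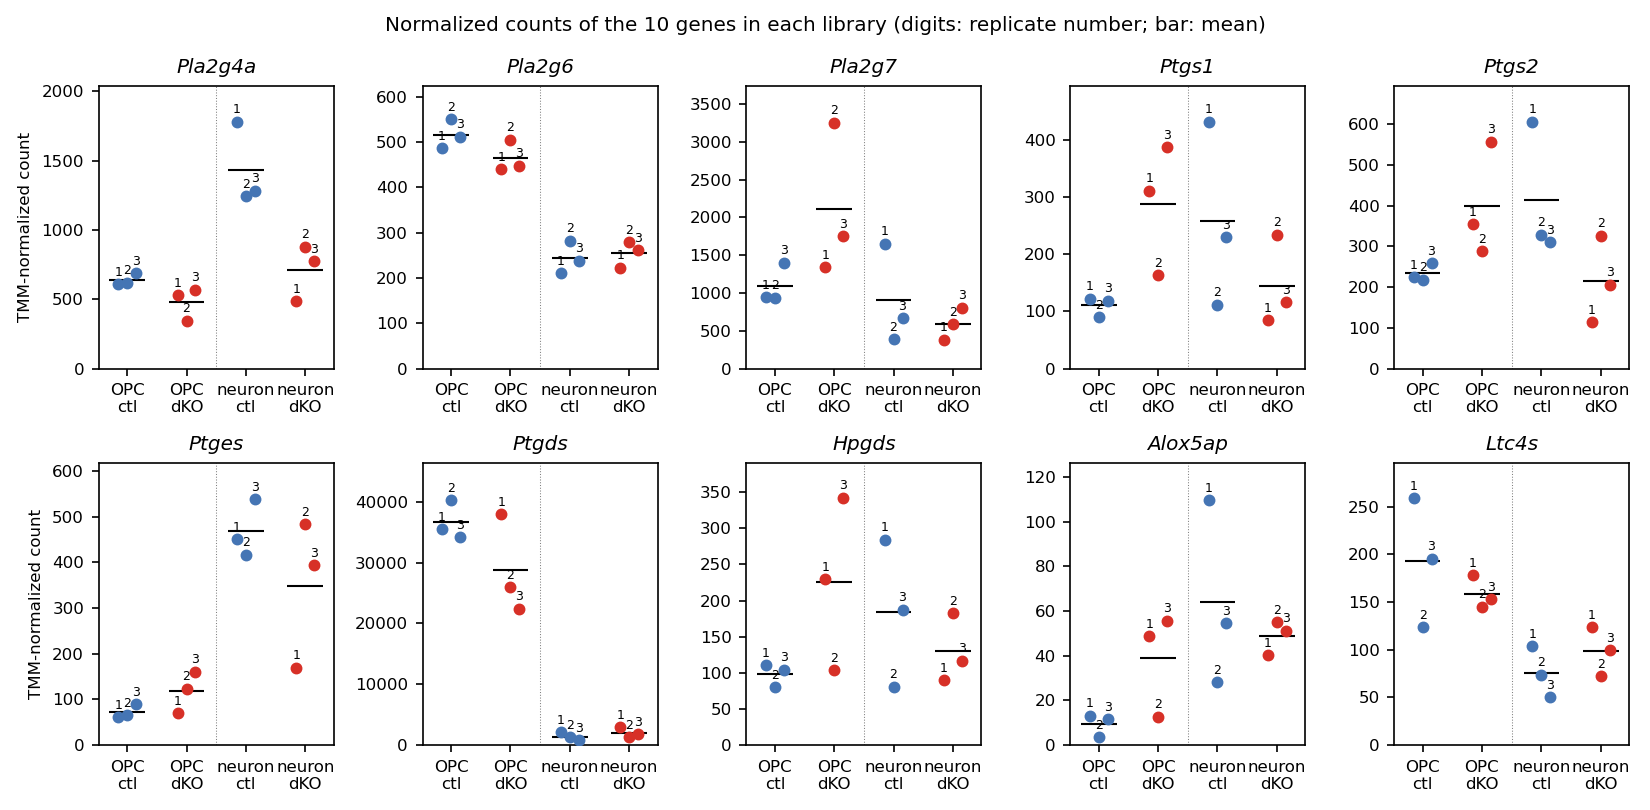
Normalized counts of the 10 genes, 1 panel per gene with its own axis from 0, in OPCs (left of the dotted line) and neurons (right). Points are libraries with their replicate number (blue, ctl; red, dKO), and bars are means of 3. In OPCs the dKO points lie above all ctl points for Ptgs1 and Ptgs2 and below them for Pla2g4a, and in neurons they lie below all ctl points for Pla2g4a alone.

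The promoters of Ptgs1, Hpgds and Ptgs2, which were higher together in dKO OPCs, are given here with 1 of Pla2g4a for comparison. They are the 250 bases before an annotated transcript start in RefSeq for GRCm38.p6, 5′ to 3′ on the gene's strand, for which 9 of the 10 genes had an entry. Alox5ap had none. Capitals mark an exact match to GAGGAAGT, an ETS motif of the kind bound by the myeloid factor PU.1, or to TTGCGCAA, a palindromic C/EBP motif. These motifs, and the cyclic AMP response motif TGACGTCA, were searched on both strands.
Ptgs1, chr2:36230176-36230425, strand +: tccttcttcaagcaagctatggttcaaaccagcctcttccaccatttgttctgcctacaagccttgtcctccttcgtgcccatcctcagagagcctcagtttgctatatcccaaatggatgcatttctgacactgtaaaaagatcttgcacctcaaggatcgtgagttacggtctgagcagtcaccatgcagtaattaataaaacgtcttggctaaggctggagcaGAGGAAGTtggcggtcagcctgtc
Hpgds, chr6:65144731-65144980, strand -: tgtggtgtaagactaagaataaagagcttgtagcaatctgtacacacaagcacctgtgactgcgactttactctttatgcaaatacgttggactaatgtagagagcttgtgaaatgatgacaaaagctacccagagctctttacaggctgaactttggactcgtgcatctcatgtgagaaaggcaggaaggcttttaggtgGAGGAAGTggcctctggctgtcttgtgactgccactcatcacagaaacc
Ptgs2, chr1:150099781-150100030, strand +: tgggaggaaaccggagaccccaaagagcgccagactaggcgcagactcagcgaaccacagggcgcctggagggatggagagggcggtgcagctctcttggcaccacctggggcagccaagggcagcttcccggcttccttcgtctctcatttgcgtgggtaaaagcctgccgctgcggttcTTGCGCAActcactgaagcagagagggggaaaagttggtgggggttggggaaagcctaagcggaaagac
Pla2g4a, chr1:149961291-149961540, strand -: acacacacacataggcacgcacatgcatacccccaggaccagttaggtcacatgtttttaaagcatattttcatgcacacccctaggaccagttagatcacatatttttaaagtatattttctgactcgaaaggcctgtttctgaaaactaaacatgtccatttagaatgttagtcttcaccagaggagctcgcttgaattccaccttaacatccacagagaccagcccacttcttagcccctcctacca
The first base of GAGGAAGT lay 24 bases before the start of Ptgs1 and 49 bases before that of Hpgds. It was present in 2.441% of all 32851 windows of the same length. The first base of TTGCGCAA lay 69 bases before the start of Ptgs2 and was present in 0.1644% of windows. The motif TGACGTCA, present in 1.546% of windows, had no match in the windows of the 9 genes. Neither of the other motifs had a match in those of Pla2g4a, Pla2g6, Pla2g7, Ptges, Ptgds or Ltc4s. Pla2g4a has a pair of annotated starts with a window each, and the one shown is the farther upstream. These letters are a description of the sequence and were chosen after the windows had been read. Pla2g4a and Ptgs2 are neighbours on chromosome 1, transcribed away from each other. In the OPC table Pla2g4a spans 149705369 to 149837041 on the minus strand and Ptgs2 149975782 to 149983978 on the plus strand, 138.741 kb apart, in the build of that table.

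Markers of several other cell types also differed between ctl and dKO OPC libraries. All 12 microglia markers were higher in dKO and 12 of 12 had an unadjusted p under 0.05. Their summed normalized counts were 4924, 4734 and 5707 in ctl and 14542, 6112 and 19065 in dKO, with dKO 2 again nearest to ctl. Of 7 markers of perivascular macrophages, 7 were higher and 3 had a p under 0.05, with sums of 367 to 385 in ctl and 524 to 783 in dKO. Of 8 astrocyte markers, 8 were higher and 7 had a p under 0.05, with sums of 18666 to 33420.4 in ctl and 31918 to 97086 in dKO, the highest in dKO 2. Of 9 endothelial markers, 9 were higher and 0 had a p under 0.05, with sums of 28434 to 40603 in ctl and 53836, 24175 and 66165 in dKO, the same order of dKO libraries as for Ptgs1 and Hpgds. Of the 8 markers of leptomeningeal fibroblasts 8 were higher, and of the 8 of mural cells 7, with 0 at a p under 0.05 in either list. Their sums were 1266 to 1671 in ctl and 1524 to 2939 in dKO for the fibroblasts, and 12987 to 18239.6 in ctl and 11756 to 23198 in dKO for the mural cells. Of 8 oligodendrocyte markers, 6 were lower and 1 of them had a p under 0.05, with sums of 1154350 to 1356740 in ctl and 1480630, 1229440 and 851060 in dKO. Among the dKO libraries Ptgds was likewise highest in dKO 1 and lowest in dKO 3. Of 6 markers of choroid plexus and ependyma, 4 were higher, 2 were lower and 0 had a p under 0.05. They summed to 180860 to 414973 in ctl and 286912 to 303030 in dKO. No marker of these lists was at 0 in all libraries.

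Relative to the microglia markers, Ptgs1 and Hpgds varied less between OPC libraries than in their own counts. Per 1000 summed microglia marker counts, Ptgs1 stood at 24.9, 19.1 and 20.9 in ctl and 21.4, 26.7 and 20.4 in dKO, where its own count had spanned 90.5 to 388. The means were 21.6 ± 2.95 and 22.8 ± 3.40 (SD, n = 3 each), with a two-sided exact permutation p of 0.6. Hpgds stood at 22.4, 16.9 and 18.3 in ctl and 15.8, 16.9 and 18.0 in dKO, with means of 19.2 ± 2.87 and 16.9 ± 1.08 and an exact permutation p of 0.3. Thus the ratio of Hpgds in dKO was 0.881 times that in ctl, beside a fold change of 2.28 in its own count. Alox5ap was at 1.81 ± 0.971 in ctl and 2.79 ± 0.651 in dKO per 1000 marker counts, with an exact permutation p of 0.2. With 3 libraries against 3 this test cannot give a p under 0.1, so none of the 16 ratios tested here could pass 0.05 before or after adjustment.

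For Ptgs2 the ratio stood at 45.5, 46.0 and 45.4 per 1000 microglia marker counts in ctl and at 24.4, 47.1 and 29.2 in dKO, so that dKO 1 and dKO 3, the libraries with most microglia markers, were below ctl and dKO 2 was just above it. Its exact permutation p was 0.4. Pla2g4a went from 125 ± 5.23 in ctl to 40.9 ± 13.9 in dKO and Ltc4s from 37.7 ± 13.5 to 14.7 ± 8.14, both with all dKO libraries below ctl and an exact permutation p of 0.1. Pla2g7 was at 212 ± 29.2 in ctl and 92.1, 532 and 91.8 in dKO. Per 1000 summed counts of the 8 astrocyte markers, a ratio added after the values had been seen, Pla2g7 stood at 50.8, 32.6 and 41.9 in ctl and 42.0, 33.5 and 35.3 in dKO. These means of 41.8 ± 9.10 and 36.9 ± 4.46 had an exact permutation p of 0.7, and dKO 2 did not stand apart on this scale. The part of each cell type in these differences was not tested.

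**Figure D3:**
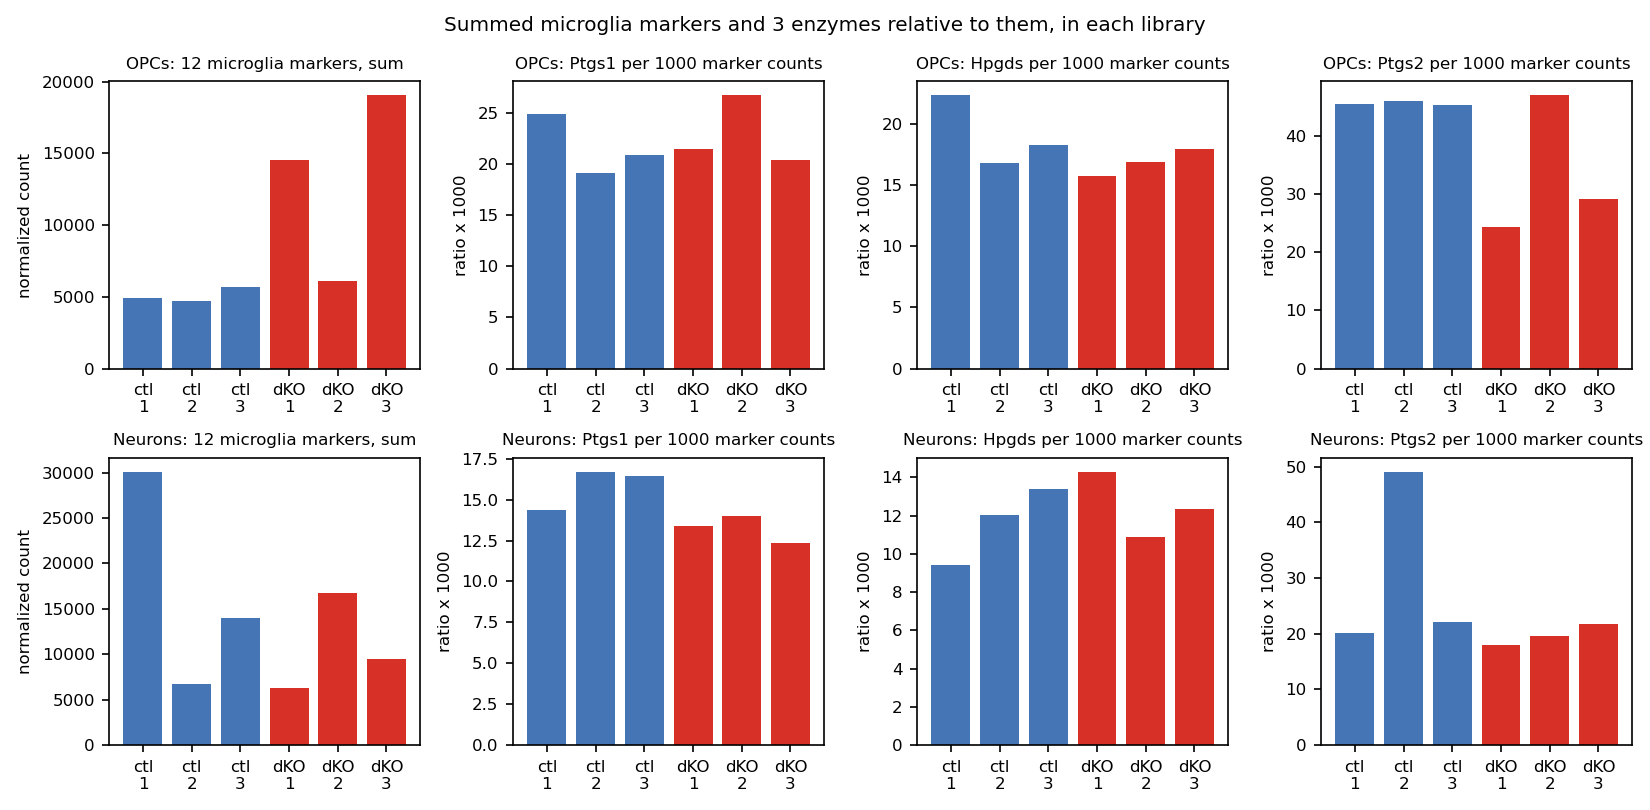
Summed normalized counts of the 12 microglia markers (left column) and the normalized counts of Ptgs1, Hpgds and Ptgs2 per 1000 of those marker counts, with 1 bar per library (blue, ctl; red, dKO), for OPCs above and neurons below. In OPCs the marker sum runs from 4734 to 19065 while Ptgs1 per 1000 marker counts stays between 19.1 and 26.7.

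In neurons Pla2g4a and Ptgs2 were lower in dKO, and the other 8 genes did not pass an unadjusted p of 0.05. In all, 7 of the 10 had a negative and 3 a positive log2 fold change, with a median of -0.46 beside 0.01 over all genes tested. Of the 10, 2 passed an unadjusted p of 0.05, both lower, where 9.00% of 14352 genes had one, 4.96% higher and 4.04% lower. Groups did not overlap for 1 of the 10, with dKO below, against 15.3% of all genes, of which dKO was above in 7.50% and below in 7.82%. No gene had an adjusted p under 0.05 with edgeR (0.00% of all genes), while DESeq2 called 1 of the 10, Pla2g4a, where it called 0.613% of genes.

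Pla2g4a was the gene of the 10 with the smallest p in neurons. Its normalized counts were 1780.4, 1241 and 1284 in ctl and 488, 878 and 775 in dKO. All dKO libraries were below all ctl libraries, with dKO 1 the lowest and ctl 1 the highest. This gave a log2 fold change of -1.01 (SE 0.24, 95% interval -1.56 to -0.46), with an edgeR p of 0.00266 and an adjusted p of 0.521, while the adjusted p of DESeq2 was 0.0286. With each library left out in turn the log2 fold change ran from -1.18 to -0.80. It was -0.61 when ctl 1 and dKO 1, the libraries with Y-linked counts, were both left out. All reads of Pla2g4a in neurons were assigned to a single RefSeq transcript.

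Ptgs2 counted 606, 329 and 309.7 in ctl neurons and 114, 327 and 206 in dKO neurons. The groups overlapped, since dKO 2 lay within the ctl range, and the highest and lowest libraries were ctl 1 and dKO 1. This gave a log2 fold change of -0.95 (SE 0.40, 95% interval -1.86 to -0.03), with an edgeR p of 0.0444 and an adjusted p of 0.548. The p was 0.196 without ctl 1, 0.104 without dKO 1 and 0.104 without dKO 3, with log2 fold changes of -0.57, -0.64 and -0.91. With ctl 1 and dKO 1 both left out, the log2 fold change of Ptgs2 was -0.27 with an edgeR p of 0.345.

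Of the 5 genes that were higher in dKO OPCs, the other 4 beside Ptgs2 did not pass an unadjusted p of 0.05 in neurons. Ptgs1 counted 433, 112 and 230.4 in ctl and 84.2, 235 and 117 in dKO, a log2 fold change of -0.83 (95% interval -2.02 to 0.37). Hpgds counted 284, 80.7 and 188 in ctl and 90.1, 183 and 117 in dKO, a log2 fold change of -0.50 (95% interval -1.55 to 0.55). Pla2g7 counted 1652, 386 and 669 in ctl and 382, 587 and 805 in dKO, a log2 fold change of -0.61 (95% interval -1.73 to 0.51). Alox5ap counted 109.7, 28.2 and 54.6 in ctl and 40.2, 54.9 and 51.2 in dKO, a log2 fold change of -0.40 (95% interval -1.58 to 0.79). For these 4 genes the highest library was ctl 1, and the groups overlapped. Without ctl 1 the log2 fold change of Pla2g7 was 0.17 and that of Alox5ap 0.24, and those of Ptgs1 and Hpgds were -0.23 and -0.04. The p of Ptgs1 was 0.0362 without ctl 2 and 0.0399 without dKO 2, with log2 fold changes of -1.19 and -1.36, and that of Pla2g7 was 0.0481 without ctl 2. Ptges ran from 417 to 539 in ctl and from 169 to 484 in dKO, with a log2 fold change of -0.43 (95% interval -1.20 to 0.35), which was -0.09 without dKO 1. Ptgds, at 799 to 2065 in ctl and 1315 to 2971 in dKO, had a log2 fold change of 0.53 (95% interval -0.33 to 1.39), which was 0.14 without dKO 1 and 0.92 with a p of 0.0393 without ctl 1. Ltc4s had one of 0.37 (95% interval -0.49 to 1.23), at 0.15 to 0.66 with a library left out, and Pla2g6 one of 0.06 (95% interval -0.41 to 0.53). The effect of genotype was not tested for a difference between OPCs and neurons.

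**Figure D4:**
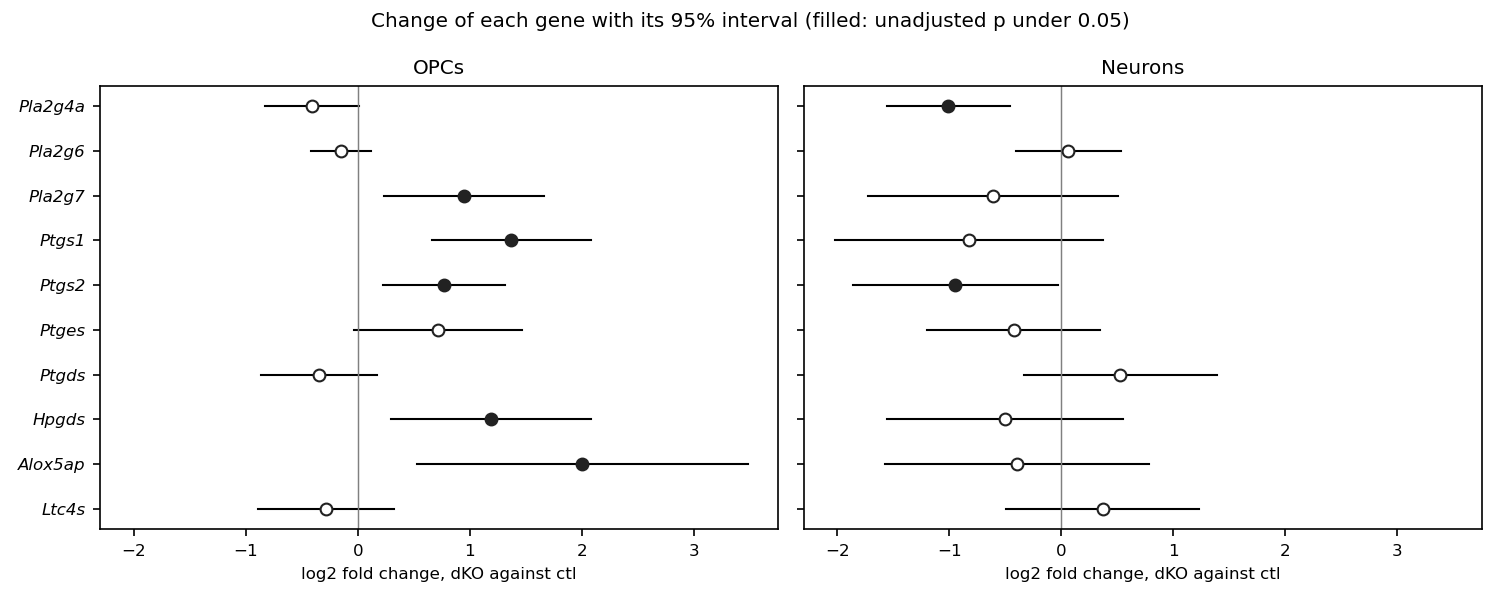
Log2 fold change of dKO against ctl for each gene with its 95% interval from edgeR, in OPCs (left) and neurons (right), with filled points where the unadjusted p was under 0.05 (Alox5ap in OPCs was tested through its dKO libraries). Filled points lie right of 0 for Pla2g7, Ptgs1, Ptgs2, Hpgds and Alox5ap in OPCs and left of 0 for Pla2g4a and Ptgs2 in neurons.

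Microglia markers in neuron libraries followed ctl 1 as well. The 12 markers summed to 30117, 6695 and 13995 in ctl and 6302, 16754 and 9459 in dKO, and 12 of 12 were lower in dKO with 0 at a p under 0.05. Per 1000 of these counts Hpgds stood at 9.44, 12.1 and 13.4 in ctl and 14.3, 10.9 and 12.3 in dKO, while Ptgs1 stood at 15.8 ± 1.29 in ctl and 13.2 ± 0.845 in dKO (SD, n = 3 each). The spread of both genes across libraries was thus smaller per marker count than in their own counts, with exact permutation p values of 0.6 and 0.1, and for Ptgs1 all dKO libraries were below ctl. Pla2g4a stood at 59.1, 185 and 91.7 in ctl and 77.4, 52.4 and 81.9 in dKO, overlapping, with an exact permutation p of 0.4.

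Endothelial markers, like Pla2g4a, were lower in dKO than in ctl neuron libraries. All 9 were lower in dKO, 3 with a p under 0.05, and none was at 0. Their summed counts were 283522, 276411 and 306284 in ctl and 136230, 243544 and 243903 in dKO, so that dKO lay below ctl and dKO 1 was the lowest, as for Pla2g4a. Per 1000 of these counts, a ratio added after the values had been seen, Pla2g4a stood at 6.28, 4.49 and 4.19 in ctl and 3.58, 3.60 and 3.18 in dKO. All dKO libraries remained below ctl on this scale, by 1.44-fold against 2.01-fold for the counts themselves, with an exact permutation p of 0.1. The summed choroid plexus and ependyma markers were highest in the same library, at 475894 in dKO 1 against 76761 to 225940 in the others. Of the 5 that were tested, 3 had a p under 0.05. Among these markers Ttr stood at a mean of 20876 TPM in ctl neurons and the next, Folr1, at 122 TPM. In TPM, Ttr, Folr1 and Kl were highest in dKO 1, while Ccdc153 and Rarres2 were highest in ctl 1 and Foxj1 in dKO 3. Neuron markers were higher in 9 of 9 cases, 1 with a p under 0.05, with sums of 8548 to 12032 in ctl and 21310.5, 13848 and 11902 in dKO. Of 8 oligodendrocyte markers 8 were lower, 1 with a p under 0.05, with sums of 12078 to 63209 in ctl and 18273 to 30593 in dKO. Of 8 astrocyte markers 6 were lower, 2 of them with a p under 0.05, with sums of 6320.3 to 17377 in ctl and 4685 to 9274 in dKO. Both of these sums were highest in ctl 1. The part of these cell types in the result was not tested.

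The genes most like Pla2g4a across the 12 libraries were found by Pearson's r of log2 CPM (depth-scaled counts), centred within each cell type, among 13398 genes. They were Irak4 (r = 0.94), a kinase of Toll-like and interleukin-1 receptor signalling, Grb7 (r = 0.93), an adaptor of receptor tyrosine kinases, Cr1l (r = 0.92), a complement regulator, Cept1 (r = 0.91), which makes phosphatidylcholine and phosphatidylethanolamine, and Mier1 (r = 0.91), a transcriptional regulator. Spearman's rho for these genes was 0.92, 0.90, 0.78, 0.88 and 0.84. The libraries differ in depth, cell mixture and genotype, which all genes of a library share, so these values are a description. Among the other 9 genes, r with Pla2g4a ran from -0.29 for Ptgds to 0.67 for its neighbour Ptgs2. For Ptgs2 the r was -0.16 within the 6 OPC libraries and 0.95 within the 6 neuron libraries.

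**Figure D5:**
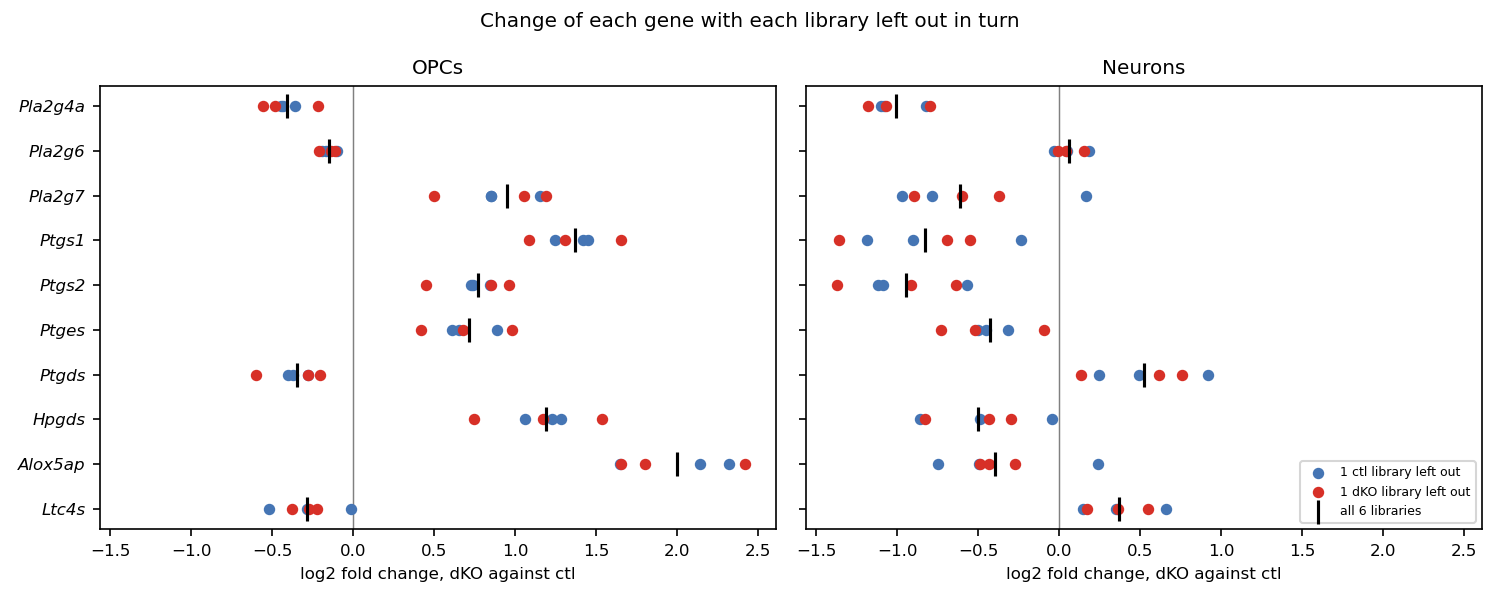
Log2 fold change of dKO against ctl with each library left out in turn (blue, a ctl library; red, a dKO library) and with all 6 libraries (black bar), for OPCs (left) and neurons (right). In OPCs no gene changes its sign, while in neurons Pla2g6, Pla2g7 and Alox5ap do.

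Other genes of the pathway were read from 5 lists of 86 genes, of which 82 were in each table and 62 were tested in each. In OPCs 45 had a positive and 17 a negative log2 fold change, 10 were higher and 3 lower at an unadjusted p under 0.05 (over all genes 6.27% and 5.27%), and the median was 0.17. The groups did not overlap for 14 of the 62, 10 with dKO above and 4 with dKO below, where over all genes the shares were 17.0%, 7.41% and 9.55%. In neurons 26 were positive and 36 negative, 3 were higher and 2 lower at a p under 0.05, where 9.00% of all genes had one, and the median was -0.08. An adjusted p under 0.05 with edgeR was found for none of the 62 in either cell type, and with DESeq2 for 3 in OPCs and 0 in neurons, where it called 1.69% and 0.613% of all genes. Ptgdr in OPCs (positive) and Ptger3 in neurons (negative), both receptors and named for this reason alone, had a mean under 10 in their lower group and so entered the test through the higher one.

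Among 12 other genes of prostanoid synthesis, breakdown and transport, 11 were positive in OPCs and 2 passed a p of 0.05, near the share of 11.5% over all genes. Hpgd, which inactivates prostaglandins, counted 84.9, 59.5 and 83.6 in ctl and 164, 113 and 200.1 in dKO, a log2 fold change of 1.06 (SE 0.27), with adjusted p values of 0.291 with edgeR and 0.0302 with DESeq2. Tbxas1, the thromboxane synthase, counted 30.6, 28.6 and 24.0 in ctl and 80.1, 31.8 and 88.8 in dKO, a log2 fold change of 1.26 (SE 0.41, edgeR adjusted p = 0.33). Both had all dKO libraries above ctl with dKO 2 the lowest of them, the order seen for Ptgs1 and for the microglia markers. In neurons 6 of the 12 were positive and none passed.

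Of 12 receptors for these lipids tested in OPCs, 8 were positive and 2 passed a p of 0.05, a share near the 11.5% of all genes. The thromboxane receptor Tbxa2r had a log2 fold change of 1.03 (SE 0.32), with 33.3 to 59.5 normalized counts in ctl and 65.3 to 106 in dKO. The PAF receptor Ptafr had one of 1.44 (SE 0.53), at 42.0, 33.3 and 46.0 in ctl and 109, 35.4 and 187 in dKO, with dKO 2 inside the ctl range. In neurons 3 of 10 were positive and none passed.

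Of 12 other phospholipases A2 and PAF hydrolases tested in OPCs, 7 were positive, and Pla2g15, the lysosomal phospholipase A2, and Pnpla8, a calcium-independent one, passed with log2 fold changes of 0.68 (SE 0.25) and 0.22 (SE 0.09). That is 2 of 12, beside 11.5% of all genes. In neurons 6 of 12 were positive and 2 passed, beside 9.00% of all genes. Pla2g5, a secreted phospholipase A2, counted 57.9, 87.5 and 69.6 in ctl neurons and 229, 88.0 and 156 in dKO neurons, a log2 fold change of 1.13 (SE 0.39, edgeR adjusted p = 0.521). Pafah1b3, a catalytic subunit of the intracellular PAF hydrolase, had one of 0.55 (SE 0.22).

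Of 9 other genes of the leukotriene and lipoxygenase branch tested in OPCs, 6 were positive and 2 passed a p of 0.05, beside 11.5% of all genes. Lta4h, which makes leukotriene B4, was lower at 1087, 1147 and 975 in ctl and 891, 799 and 832 in dKO, a log2 fold change of -0.35 (SE 0.11). Ephx2, the soluble epoxide hydrolase, was higher with a log2 fold change of 0.92 (SE 0.26) and its highest count, 354, in dKO 2, where astrocyte markers peaked. In neurons 6 of 11 were positive and 1 passed, beside 9.00% of all genes, and this gene, Mgst2, which can make leukotriene C4, was lower at 54.8, 30.2 and 91.1 in ctl and 20.6, 24.6 and 13.3 in dKO, a log2 fold change of -1.58 (SE 0.55, edgeR adjusted p = 0.521).

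The last list held other routes of arachidonate release and its return to phospholipids, with 13 of 17 genes positive in OPCs and 5 past a p of 0.05, beside 11.5% of all genes. Faah, which releases arachidonate from the endocannabinoid anandamide, was lower, at 843, 948 and 908 in ctl and 625, 616 and 646 in dKO. Its log2 fold change was -0.52 (SE 0.10), with an adjusted p of 0.246 with edgeR and 0.00881 with DESeq2. Lpcat1, a lysophosphatidylcholine acyltransferase, was higher, at 305, 305 and 331 in ctl and 443, 634 and 516 in dKO, with a log2 fold change of 0.76 (SE 0.15) and adjusted p values of 0.246 and 0.00823. Dagla, a diacylglycerol lipase, had a log2 fold change of 0.70 (SE 0.22) and Lpcat4 one of -0.40 (SE 0.14). Lpcat2, which is named after its value was seen, also passed a p of 0.05, with a log2 fold change of 0.32 (SE 0.13). In neurons 5 of 17 were positive and 2 passed, beside 9.00% of all genes, with Acsl3, a long-chain acyl-CoA synthetase, lower by a log2 fold change of -0.46 (SE 0.15) and Mboat2, a lysophospholipid acyltransferase, higher by 0.43 (SE 0.16).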

How the data were processed

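RNA of isolated cortical OPCs and neurons was sequenced in 12 libraries, 3 per group. For OPCs the authors deposited raw counts per Ensembl gene and FPKM values, which scale counts by gene length and depth. Their methods name HISAT2, GRCm38 and featureCounts, whereas the submitters' processing notes name mm39, and the coordinates of 0 of the 10 genes equal those of GENCODE M21. For neurons the authors deposited estimated counts and TPM per RefSeq transcript. The methods name featureCounts for the samples of both cell types. A tool for estimated counts per transcript is not given in the sources used here. The estimated counts (66298 transcripts) were summed per gene and rounded, and 17794 of 17918 genes were matched to a symbol in the RefSeq table of GRCm38.p6. OPC TPM were computed from the deposited FPKM, and no test used FPKM or TPM. The tables also hold the authors' own test results, which were not used.

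Libraries were assigned to groups by title and column name. Nothing but the pooling of mice says that libraries are separate preparations, so p-values measure the spread between these libraries. Genes were kept where their TMM-normalized counts averaged 10 or more, and dKO was compared with ctl within each cell type by the quasi-likelihood test of edgeR 4.0.16 in R 4.3.3. Genotype was the single model term, and p-values were adjusted over all genes tested by the Benjamini-Hochberg method. To obtain an SE, the log2 fold change was divided by √F. Alternatives were DESeq2 1.42.0, another normalization, no filter, a replicate block and each library left out. Leaving out the neuron libraries with Y-linked counts, and 9 of the 16 marker ratios, were added after the data had been seen. The scripts were tested on simulated data. The genes, the pathway and marker lists and the rules were chosen with earlier results of these data known. The genes named are the 10, the targeted genes, up to 4 genes per pathway list and cell type with an unadjusted p under 0.05, and the 5 genes most like Pla2g4a. Lpcat2, beyond that limit, was named after its value had been seen. Ptgdr and Ptger3 were named only because they entered the test through their higher group. Single markers of choroid plexus and ependyma were also named after their values had been seen.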

Additional observations from a re-analysis of the deposited data

How the results depend on the processing

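Of 210 recomputed log2 fold changes of the 10 genes, 197 kept their direction and their side of an adjusted p of 0.05, 5 passed it in addition and 8, all in neurons, changed sign. Those that passed were Ptgs1 in OPCs with DESeq2 (0.00645), without the filter (0.036) and without dKO replicate 2 (0.0121), Hpgds in OPCs without dKO replicate 2 (0.0316) and Pla2g4a in neurons with DESeq2 (0.0286). Without ctl replicate 1 the neuron log2 fold changes of Pla2g6, Pla2g7 and Alox5ap were -0.032, 0.17 and 0.24, and without dKO replicate 2 that of Pla2g6 was -0.0048. With ctl 1 and dKO 1 both left out, chosen after seeing the data, those of Pla2g7, Ptgs1, Alox5ap and Hpgds were 0.40, 0.037, 0.36 and 0.16. The cause was not tested. Over all libraries left out in turn, these ran from -0.032 to 0.18 for Pla2g6, from -0.97 to 0.17 for Pla2g7 and from -0.75 to 0.24 for Alox5ap. The number of the 10 genes at an unadjusted p under 0.05 was 4 to 7 in OPCs and 1 to 4 in neurons with 1 library left out, where all genes gave 6.34% to 13.3% and 5.45% to 11%. In OPCs 1 gene was lower of 4 without ctl replicate 2, of 7 without dKO replicate 1 and of 5 without dKO replicate 3. In neurons 1 of 2 was higher without ctl replicate 1. The number of the 10 genes was 1 in neurons with ctl 1 and dKO 1 left out, where all genes gave 6.76%. For the pathway genes it was 9 to 15 in OPCs and 2 to 7 in neurons. The log2 ratio of Pla2g7 to microglia markers ran from -1.20, without dKO replicate 2, to 0.56. Other leave-one-out ranges were 0.25 to 1.01 for Alox5ap, -0.27 to -0.06 for Hpgds, -0.05 to 0.19 for Ptgs1, -1.89 to -1.04 for Ltc4s, -0.77 to -0.26 for Ptgs2 and -1.92 to -1.43 for Pla2g4a.

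Same-numbered OPC libraries correlated at -0.11, 0.15 and 0.11 and neuron libraries at 0.17, -0.08 and -0.08. Libraries with different numbers correlated at -0.29 to 0.21 in OPCs and at -0.15 to 0.21 in neurons. These values, centred within 3 libraries per group, cannot tell whether replicate numbers pair the samples. Both neuron libraries with most Y-linked counts, ctl 1 and dKO 1, share a number. The main test used no pairing. With the replicate block 7 of the 10 genes had a p under 0.05 in OPCs, 6 higher and 1 lower, beside 11.7% of all genes. In neurons 1 had, beside 8.95% of all genes, and Ptgs2 had 0.0786. Over all genes the number with an adjusted p under 0.05 in OPCs was 1 with edgeR, 293 with DESeq2, 87 without the filter, 27 with the block and 199 without dKO replicate 2, and in neurons 0 and 88 with DESeq2. Alox5ap had 3 to 52 raw counts in OPCs, so its fold change rests on few counts.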
